A study of Macaca mulatta with 8 samples.

Results

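Solute carriers are membrane proteins that move amino acids, ions, metals, vitamins, nucleosides and sugars across membranes, and their genes carry symbols that begin with SLC and a family number. The members described here were all non-control probe sets of a rhesus macaque array with a single platform gene symbol of that form, leaving out the SLC2A, SLC8A, SLC25A and SLC27A families. The rule took 371 probe sets for 227 genes, out of 52766 non-control probe sets and 14132 genes with such a single symbol. Of these, 75 probe sets (46 genes) belonged to the amino acid families SLC1A, SLC3A, SLC6A, SLC7A, SLC36A and SLC38A, and 296 (181 genes) to all other families. The rule left out 89 probe sets of the 4 named families and 2 probe sets with several symbols. The symbols do not all stand for carriers of the cell surface. A list of carriers known mainly from internal membranes, such as the Golgi nucleotide sugar carriers of SLC35, held 84 of the 371 probe sets (50 genes). SLC7A6OS and SLC67A1-AS entered through their names alone, the first for a gene on the opposite strand of SLC7A6 and the second as an antisense transcript.

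The study compared 4 arrays of metaphase II oocytes matured in vitro with 4 arrays of metaphase II oocytes matured in vivo, the stage at which a mature egg awaits fertilization. Each array carried RNA of a pool of 4 oocytes, taken through 2 rounds of amplification. The labels give no strain, age, hormone treatment or culture medium and do not name the animals, so the tests measure how these pools varied, which may in part be technical. Pooled oocytes cannot tell fewer contributing cells from less RNA per cell.

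The growing oocyte is fed in part by the cumulus cells around it, which take up amino acids and glucose with carriers of their own and pass substrates on through gap junctions. The oocyte also has carriers of its own for cell volume, pH and metals. In the mouse, glycine uptake by GLYT1 (SLC6A9) sets the volume of the egg and early embryo, and zinc importers load the zinc that keeps the egg in metaphase II.

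Brightness was scaled alike on the 8 arrays, and the share of probe sets above background was 53.8% to 60.9% in vitro and 49.9% to 59.9% in vivo. Background is the 95th percentile of 59 unspiked control probe sets on each array. Ratios of 3′ to 5′ GAPDH control signal ran from 27.3 to 47.3 in vitro and from 20.6 to 49.4 in vivo, so the groups overlapped. All 11 oocyte markers on the array were above background on all 8 arrays. Of 14 markers of granulosa and cumulus cells, 9 were above background on every array. The summed signal of the list was 17115 to 24261 in vitro and 16912 to 22253 in vivo. Most of it was SERPINE2, with means of 12488 in vitro and 13703 in vivo, so the sum says little about the other markers. Of this list INHBA (log2 fold change 3.08) and STAR (2.60) passed the test, both higher in vitro. HSD3B2 (2.28, limma adjusted p = 0.214) was also higher in vitro without overlap, while the median over the 14 was -0.08. The summed signal of 5 blood markers was 54 to 131 in vitro and 140 to 214 in vivo, and that of 8 stroma and endothelium markers was 557 to 1146 in vitro and 467 to 714 in vivo. Of the 5 blood markers 0 were above background on all 8 arrays. The part of other cells in the carrier values below was not tested.

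The first question was which carrier transcripts differed between culture and the animal. No carrier probe set passed the test: 0 of 208 tested members reached a limma adjusted p of 0.05, against 0.144% of all tested probe sets (0.102% higher and 0.0417% lower in vitro). The members with the smallest p were SLC12A5 and SLC1A5, 1.87-fold and 1.83-fold brighter in vitro with groups that did not overlap, and both just short of the threshold. An unadjusted p under 0.05 was reached by 20 of the 208 members (9.62%), against 10.2% of all tested probe sets, 10 of them with higher signal in vitro (background 4.7%) and 10 with lower (background 5.53%). The groups did not overlap at 12 members (5.77%), against 6.28% of all tested probe sets. A fitted difference of 2-fold or more was seen at 8 members (3.85%), against 2.95% of all tested probe sets (1.4% higher and 1.55% lower in vitro). All 3 shares lay near those of the whole array.

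**Figure D1:**
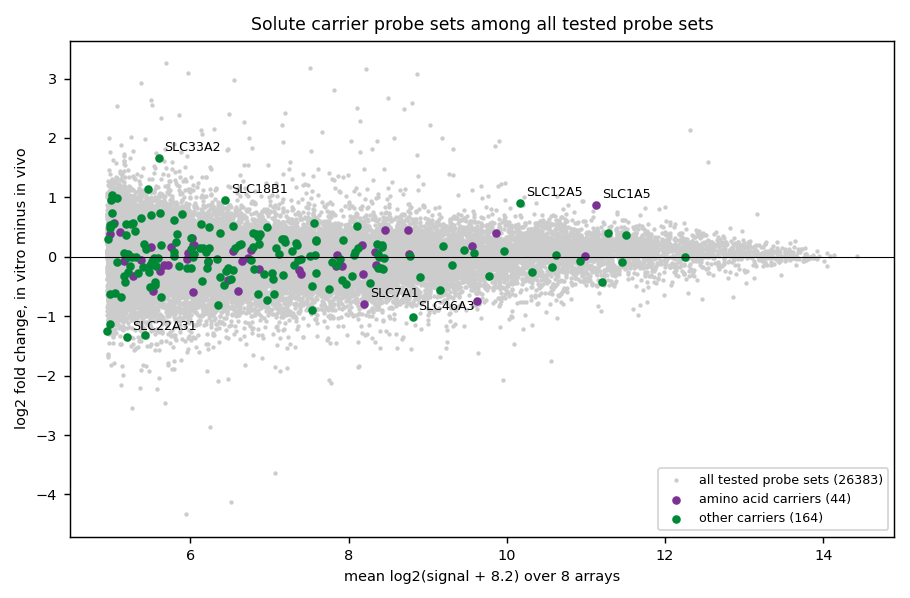
Log2 fold change, in vitro minus in vivo, against mean log2(signal + 8.2) over 8 arrays, for all 26383 tested probe sets (grey), 44 amino acid carrier probe sets (purple) and 164 other carrier probe sets (green). Carriers lie within the grey cloud; SLC12A5 (0.91) and SLC1A5 (0.87) stand at its upper edge among bright probe sets.

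The median log2 fold change was -0.03 over 44 tested amino acid carrier probe sets and 0.01 over 164 tested probe sets of the other carriers, beside 0.01 over all tested probe sets. The quartiles were -0.21 and 0.19 in the amino acid class and -0.25 and 0.27 in the other class, against -0.27 and 0.25 over all tested probe sets. Of the amino acid class 21 were positive (47.7%) and 23 negative, and of the other class 84 were positive (51.2%) and 80 negative. Over all tested probe sets 50.7% were positive. The filter on dim signals matters for these counts, since 163 of the 371 members, among them 31 of the amino acid class, were too dim to be tested. Signals above background on all 8 arrays were found for 42.7% of the amino acid class and 38.5% of the others, against 34.1% of all probe sets. On no array above background were 12 and 38 probe sets of the 2 classes.

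Among the amino acid carriers, SLC1A5 encodes ASCT2, a sodium-dependent exchanger of neutral amino acids that brings in glutamine. Its probe set MmuSTS.2773.1.S1_at (Entrez gene 716843) had signals of 3071.0, 3005.8, 3222.4 and 2804.4 in the pools matured in vitro, against 1835.4, 2001.1, 1434.1 and 1411.7 in the pools matured in vivo. Every in vitro array lay above every in vivo array. The means were 3026 ± 173 in vitro and 1671 ± 294 in vivo (SD, n = 4 each), 1.83-fold apart, with a log2 fold change of 0.87 ± 0.17 (SE; 95% interval 0.51 to 1.23). The limma adjusted p was 0.0588, and over 18 alternative settings it ran from 0.0377 to 0.316, passing with quantile normalization (0.0473), array weights (0.0377) and the upper-quarter filter (0.0478). The other genes of its family did not separate. SLC1A4, encoding the related exchanger ASCT1, had log2 fold changes of 0.20 and -0.16 at its 2 tested probe sets, and the glutamate carrier genes SLC1A2, SLC1A3, SLC1A6 and SLC1A7 had -0.16, -0.07, 0.10 and 0.06.

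**Figure D2:**
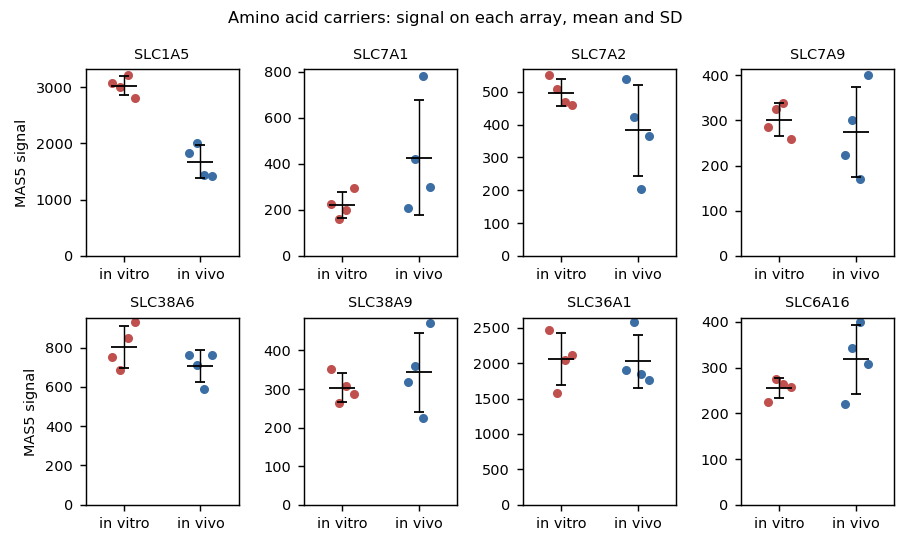
MAS5 signal on each of the 4 in vitro arrays (red) and 4 in vivo arrays (blue) for 8 amino acid carrier probe sets, with the group mean and SD in black and each axis starting at 0. SLC1A5 shows no overlap between groups, while the other 7 overlap and SLC7A1 spreads from 208.4 to 778.9 in vivo.

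The SLC7A family holds the cationic amino acid carriers and the light chains of amino acid exchangers. SLC7A1, which encodes the arginine and lysine carrier CAT1, had signals of 226.0, 160.4, 200.0 and 293.0 in vitro, against 208.4, 421.2, 778.9 and 296.9 in vivo. In vivo replicate 1 lay inside the in vitro range, and in vivo replicate 3 was the highest. The log2 fold change was -0.79 ± 0.33 (SE) with a limma adjusted p of 0.433, and it was -0.45 to -1.07 with an array left out. SLC7A2, the gene of the related carrier CAT2, had positive log2 fold changes at all 4 tested probe sets, between 0.31 and 0.45. At its probe set of smallest p the signals were 551.3, 508.1, 469.2 and 460.4 in vitro, against 538.8, 422.6, 203.6 and 365.8 in vivo. In vivo replicate 3 was the lowest of the 8 arrays at each of the 4, and this array had 380.3, 142.6 and 24.7 at the other ones. The log2 fold change there was 0.45 ± 0.26 (SE; limma adjusted p = 0.583).

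SLC7A9, which encodes a cystine and dibasic amino acid exchanger known from the kidney, averaged 302 ± 36.5 in vitro and 274 ± 100 in vivo. Its heavy chain partner SLC3A1 had a log2 fold change of -0.21. SLC7A11, the gene of the cystine and glutamate exchanger that supplies cysteine for glutathione, averaged 41.5 ± 14.4 in vitro and 37.6 ± 20.5 in vivo at one probe set (log2 fold change 0.17) and had -0.06 at the other. These 2 genes did not separate the groups. SLC7A7, for an exchanger of cationic and neutral amino acids, was dim, at 31.0 ± 17.2 in vitro and 25.6 ± 22.2 in vivo. SLC7A5, which encodes the large neutral amino acid exchanger LAT1, was not above background on any array, at 1.9 to 17.0 in vitro and 1.6 to 7.0 in vivo, and was not tested. SLC7A6OS, whose yeast relative helps RNA polymerase enter the nucleus and which is no carrier, had signals of 525.1, 778.0, 548.6 and 581.0 in vitro, against 737.7, 1261.7, 1548.2 and 723.8 in vivo. Only in vitro replicate 2 lay within the in vivo range, and the log2 fold change was -0.74 ± 0.25 (SE; limma adjusted p = 0.335).

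Sodium-coupled neutral amino acid carriers of SLC38A include lysosomal and surface proteins. SLC38A6 had signals of 750.9, 688.2, 848.4 and 932.3 in vitro, against 764.0, 711.8, 588.6 and 760.2 in vivo, so the groups overlapped (log2 fold change 0.19, 95% interval -0.20 to 0.57). SLC38A9, the lysosomal arginine sensor that signals to mTORC1, averaged 303 ± 37.4 in vitro and 343 ± 102 in vivo, and its other probe set 446 ± 129 in vitro and 430 ± 117 in vivo. Neither probe set of SLC38A9 parted the groups. The 4 tested probe sets of SLC38A10 ranged from -0.40 to 0.42 on the log2 scale. SLC38A3, a glutamine carrier that mouse cumulus cells express, was at 30.2 ± 19.0 in vitro and 43.3 ± 30.5 in vivo, above background on 2 in vitro and 3 in vivo arrays. SLC38A11 varied widely between in vivo pools, at 147.4 to 311.4 in vitro and 63.2 to 689.8 in vivo, with the lowest value in in vivo replicate 1 and the highest in in vivo replicate 4. It was chosen after its values were seen, as were SLC6A8, SLC33A1 and SLC46A3 below.

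Proton-coupled SLC36A1, a lysosomal amino acid exporter, averaged 2056 ± 366 in vitro and 2026 ± 377 in vivo at its bright probe set, a log2 fold change of 0.02. SLC36A4 averaged 45.3 ± 4.71 in vitro and 87.2 ± 57.9 in vivo, where in vivo replicates 1 and 3 had 143.5 and 129.2 and replicates 2 and 4 had 49.6 and 26.4. The in vivo pools of SLC36A4 thus lay on both sides of the in vitro ones.

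The SLC6A family couples uptake to sodium and chloride and carries amino acids, creatine, taurine and neurotransmitters. GLYT1 transcripts (SLC6A9) were not above background on any array, at 3.0 to 6.3 in vitro and 1.5 to 8.5 in vivo at the single probe set, and were not tested. All 3 probe sets of the taurine carrier gene SLC6A6 were also too dim to be tested. A value not above background does not show that a transcript was absent. SLC6A20, for a proline carrier active in early mouse embryos, averaged 108 ± 27.6 in vitro and 101 ± 32.0 in vivo (log2 fold change 0.12, 95% interval -0.51 to 0.74). SLC6A16, a family member of unsettled substrate, averaged 255 ± 21.6 in vitro and 318 ± 74.8 in vivo. The proline carrier gene SLC6A7 had 0.58 and the dopamine carrier gene SLC6A3 -0.57 and -0.08 on the log2 scale. The creatine carrier gene SLC6A8 had signals of 160.5, 153.6, 121.9 and 149.2 in vitro, against 101.6, 270.2, 99.9 and 300.2 in vivo. In vivo replicates 2 and 4 were high and replicates 1 and 3 low, on either side of all in vitro arrays. Over the family, 2 of 9 tested probe sets were positive (22.2%, against 50.7% of all tested probe sets) and 7 negative. The median was -0.22 and none passed the threshold. These 9 probe sets stand for 6 genes, and 3 of them belong to SLC6A17 and 2 to SLC6A3, all negative.

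Turning to the other carriers, SLC12A5 encodes KCC2, a potassium and chloride cotransporter best known for keeping chloride low in neurons. Its single probe set MmugDNA.39016.1.S1_at (Entrez gene 707974) had signals of 1480.4, 1660.8, 1580.2 and 1552.6 in vitro, against 933.6, 794.1, 686.5 and 945.7 in vivo. Every in vitro pool lay above every in vivo pool. The means were 1569 ± 74.5 in vitro and 840 ± 123 in vivo (SD, n = 4 each), 1.87-fold apart, with a log2 fold change of 0.91 ± 0.17 (SE; 95% interval 0.54 to 1.27). The limma adjusted p was 0.0551 and ran from 0.0164 to 0.268 over 18 alternatives. It passed without in vivo replicate 4 (0.0257), with array weights (0.0164), with the upper-quarter filter (0.0407) and with the pseudocount at the median signal (0.0488). SLC12A8, of the same family, averaged 90.8 ± 21.8 in vitro and 158 ± 42.3 in vivo and had a log2 fold change of -0.73 (limma adjusted p = 0.382). It was chosen after its values were seen.

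**Figure D3:**
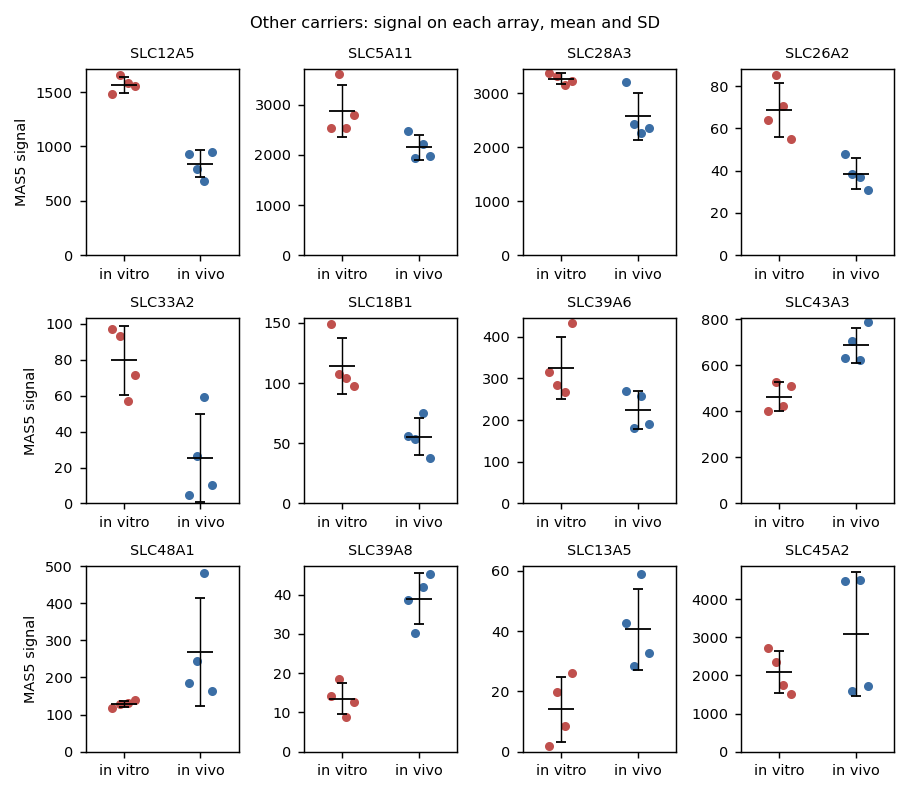
MAS5 signal on each of the 4 in vitro arrays (red) and 4 in vivo arrays (blue) for 12 probe sets of the other carriers, with the group mean and SD in black and each axis starting at 0. SLC12A5, SLC5A11, SLC26A2 and SLC18B1 lie higher and SLC43A3, SLC48A1, SLC39A8 and SLC13A5 lower in vitro with no overlap, and SLC45A2 shows 2 high and 2 low in vivo arrays.

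Non-overlap with higher signal in vitro was seen at 8 members (background 3.17%), namely SLC12A5, SLC1A5, SLC18B1, SLC26A2, SLC5A11, SLC44A2, SLC20A1 and SLC35F6. Lower signal in vitro without overlap was seen at 4 members (background 3.11%), namely SLC43A3, SLC39A8, SLC48A1 and SLC13A5. SLC44A2, SLC20A1 and SLC35F6 were named after their values were seen. The choline carrier family gene SLC44A2 had 43.6, 51.3, 55.9 and 47.9 in vitro, against 18.9, 16.1, 39.4 and 41.6 in vivo, with a log2 fold change of 0.71 here and 0.11 at the other tested one. SLC20A1, for a sodium-coupled phosphate carrier, had 54.6, 40.5, 38.4 and 42.8 in vitro, against 32.4, 18.9, 36.1 and 15.8 in vivo. The log2 fold change was 0.66 here and 0.34 at its brighter probe set, where the groups overlapped. At the probe sets without overlap, SLC44A2 and SLC20A1 stood only slightly apart between the groups. None of the 12 passed, and the adjusted p-values other than those of SLC12A5 and SLC1A5 were 0.255 or more.

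SLC18B1, for a vesicular polyamine carrier, had 148.8, 107.4, 104.4 and 97.2 in vitro, against 55.8, 53.8, 75.1 and 37.5 in vivo. The lowest in vitro pool thus exceeded the highest in vivo pool, and the log2 fold change was 0.96 ± 0.27 (SE; limma adjusted p = 0.255). SLC5A11, for a sodium-coupled inositol carrier, had 2533.8, 3621.6, 2530.8 and 2804.9 in vitro, against 2473.6, 1940.6, 2221.4 and 1970.3 in vivo. In vitro replicate 2 was the highest, and the gap between the groups was narrow (log2 fold change 0.41 ± 0.17 SE, limma adjusted p = 0.431). SLC28A3, for a concentrative nucleoside carrier, averaged 3274 ± 103 in vitro and 2572 ± 437 in vivo. One in vivo array, replicate 1, lay at 3219.4 among the in vitro values, and the log2 fold change was 0.36 ± 0.16 (SE; limma adjusted p = 0.459). SLC26A2, the sulfate carrier gene, averaged 68.7 ± 12.7 in vitro and 38.6 ± 7.14 in vivo at one probe set. Its 3 other tested probe sets had log2 fold changes of 0.40, 0.22 and -0.23, beside 0.71 at the first.

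In the opposite direction, SLC43A3, which encodes a purine nucleobase carrier in human cells, had 401.6, 526.5, 422.2 and 509.9 in vitro, against 633.0, 706.9, 624.3 and 788.7 in vivo. All in vitro pools were below all in vivo pools. The log2 fold change was -0.56 ± 0.18 (SE; limma adjusted p = 0.324), and the second tested probe set had -0.31. SLC48A1, for the haem carrier HRG1 of endosomes, had 117.4, 128.3, 130.4 and 138.6 in vitro, against 185.3, 245.6, 482.1 and 163.1 in vivo. The in vitro pools lay close together and in vivo replicate 3 stood highest, with log2 fold changes of -0.89 at this probe set and -0.32 at the other. SLC39A8, for the zinc and manganese importer ZIP8, was not above background on any in vitro array at its probe set of smallest p, at 13.5 ± 3.97 in vitro and 39.0 ± 6.48 in vivo. This makes it at least 1.56-fold lower in vitro at that probe set (limma adjusted p = 0.326), while the 2 other tested probe sets had log2 fold changes of 0.95 and 0.48. SLC13A5, for a citrate carrier, was also dim, at 14.1 ± 10.9 in vitro and 40.6 ± 13.5 in vivo.

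The 8 members with a fitted difference of 2-fold or more were SLC33A2, SLC35F6 and SLC33A1, higher in vitro, and SLC22A31, SLC66A3, SLC13A5, SLC39A8 and SLC46A3, lower in vitro. That of SLC39A8 is known only as the bound of 1.56-fold, which leaves 7. Apart from SLC46A3, their signal averaged over all 8 arrays was between 26.2 and 54.2, not far above background. SLC33A2 had 97.0, 93.2, 56.8 and 71.3 in vitro, against 4.8, 26.3, 59.4 and 10.3 in vivo. In vivo replicate 3 overlapped with the in vitro group, and 2 of the in vivo values were at or below background (log2 fold change 1.65 ± 0.46 SE, limma adjusted p = 0.243). SLC33A1, which carries acetyl-CoA into the endoplasmic reticulum, had a log2 fold change of 1.04 at its dimmest probe set and 0.23 and -0.18 at 2 brighter ones. SLC35F6 had 1.15 at one probe set, and 0.40 and -0.16 at the others. SLC66A3 had -1.32 at one and 0.19 at another, brighter probe set. The organic ion carrier family member SLC22A31 had -1.35, from 17.9 ± 16.1 in vitro and 53.8 ± 22.9 in vivo.

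The lysosomal carrier gene SLC46A3 was the exception in brightness. It had 357.0, 407.4, 212.8 and 288.1 in vitro, against 1061.8, 658.1, 1080.3 and 204.2 in vivo. In vivo replicates 1, 2 and 3 lay above all in vitro pools and in vivo replicate 4 below them all. The log2 fold change was -1.01 ± 0.42 (SE; limma adjusted p = 0.421), and without in vivo replicate 4 it was -1.54 with a limma adjusted p of 0.0195. Over all 18 alternatives that p ran from 0.0195 to 0.660. SLC45A2, a melanosome carrier gene needed for pigment, also split the in vivo pools. Its signals were 2706.2, 2358.2, 1738.6 and 1517.3 in vitro, against 4468.6, 1604.1, 4500.4 and 1733.2 in vivo. In vivo replicates 1 and 3 were high and replicates 2 and 4 within the in vitro range.

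Carriers of acid and base keep oocyte pH steady. None of 17 tested probe sets of SLC4A, SLC9A, SLC26A and their relatives passed, with a median of -0.01. The role was given by family, so 4 of the 17 belong to the sulfate carrier gene SLC26A2. SLC4A7, for a sodium bicarbonate cotransporter, averaged 4881 ± 697 in vitro and 4889 ± 572 in vivo at its brightest probe set, and its 5 tested probe sets lay between -0.37 and 0.11. SLC4A2, for the anion exchanger AE2, averaged 99.5 ± 17.0 in vitro and 107 ± 34.5 in vivo, with a 95% interval of -0.65 to 0.56. Neither gene showed a difference larger than the spread between pools. SLC3A2, SLC38A2 and SLC39A10, each of interest in oocytes, were not analysed here because no member carried those symbols.

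Metal carriers were measured by 31 tested probe sets, for 20 genes. Of these probe sets 20 were positive (64.5%, against 50.7% of all tested probe sets) and 11 negative. The median was 0.08 and none passed the threshold. SLC39A6, which encodes a zinc importer known to serve oocyte maturation in mice, had 315.0, 284.9, 268.0 and 433.4 in vitro, against 270.5, 181.2, 258.8 and 190.1 in vivo at its probe set of smallest p. In vitro replicate 3 lay just below in vivo replicate 1, so the groups overlapped slightly (log2 fold change 0.51 ± 0.23 SE, limma adjusted p = 0.463). The 3 others had 0.28, 0.20 and, at the brightest, -0.16, where the means were near each other. The copper importer gene SLC31A1 averaged 1640 ± 544 in vitro and 1563 ± 245 in vivo at its brightest probe set, with 0.39 and -0.27 at the others.

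Monocarboxylate carriers bring in pyruvate and lactate, pyruvate being a main fuel of the oocyte. Of 10 tested probe sets of SLC16A none passed, and the median was 0.11. These 10 stand for 7 genes, taken by family without a check of each one's substrate. SLC16A1, encoding MCT1, had log2 fold changes of -0.28, 0.25 and 0.06, and SLC16A7, encoding MCT2, was at 45.0 ± 36.1 in vitro and 41.5 ± 17.4 in vivo. For carnitine, SLC22A5 had 0.99 at a dim probe set and -0.63 at a brighter one, neither past the threshold. The multivitamin carrier gene SLC5A6 averaged 171 ± 44.8 in vitro and 153 ± 63.1 in vivo, and the lysosomal peptide and histidine carrier gene SLC15A4 averaged 177 ± 27.3 in vitro and 182 ± 59.9 in vivo. These fuel and vitamin carriers had 95% intervals that include 0, apart from the dim SLC22A5 probe set (0.09 to 1.89).

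Nucleotide sugar carriers of SLC35 serve glycosylation in the Golgi apparatus and endoplasmic reticulum. This role was given to every SLC35 family, SLC35F and SLC35G among them, without a check of each member's substrate. The 28 tested SLC35 probe sets stand for 17 genes. Of these probe sets 10 were positive (35.7%, against 50.7% of all tested probe sets) and 18 negative. The median was -0.13 and none passed the threshold. SLC35B1 averaged 1177 ± 246 in vitro and 1399 ± 227 in vivo at its brightest probe set, and 345 ± 73.8 in vitro and 343 ± 29.8 in vivo at another. Members on the list of internal membrane carriers, 59 tested probe sets, had a median of -0.01, and the 149 remaining ones 0.00. The list is not complete, since the remaining members include the lysosomal exporter gene SLC36A1. Of the listed members 59.5% were above background on all 8 arrays, and of the remaining members 33.4%.

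**Figure D4:**
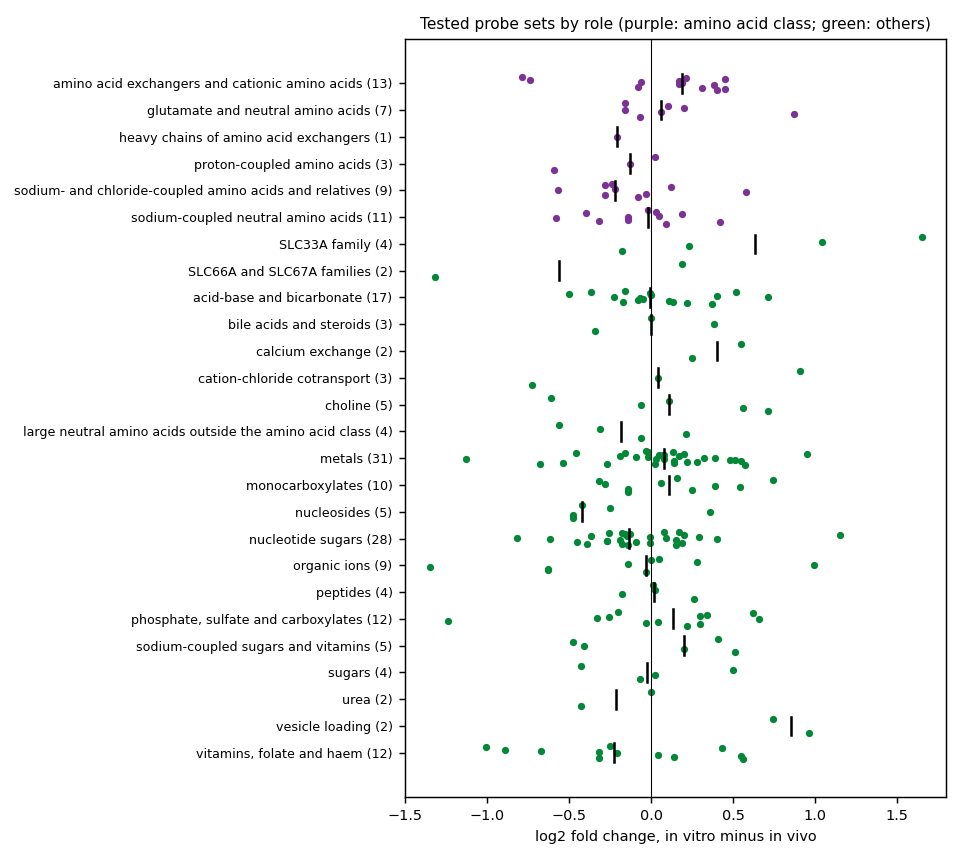
Log2 fold change, in vitro minus in vivo, of each tested carrier probe set by substrate or family role, with the number of probe sets in brackets and a black bar at the median. Each role was given to whole families. Most roles spread on both sides of 0. The SLC33A family, with a median of 0.64, holds 4 probe sets, and the nucleoside carriers, with -0.42, hold 5.

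Probe sets of the same gene often differed from each other. Of 39 carrier genes with more than 1 tested probe set, 18 had them all on the same side of 0 (46.2%), against 48.8% of 3565 named genes on the array. The probe sets of a gene lay at least 1 log2 unit apart for 5 carrier genes (12.8%), against 9.45% of all named genes. By fitted values these 5 were SLC39A8, SLC22A5, SLC66A3, SLC35F6 and SLC33A1, the lowest value of SLC39A8 being that of the probe set with only a bound.

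**Figure D5:**
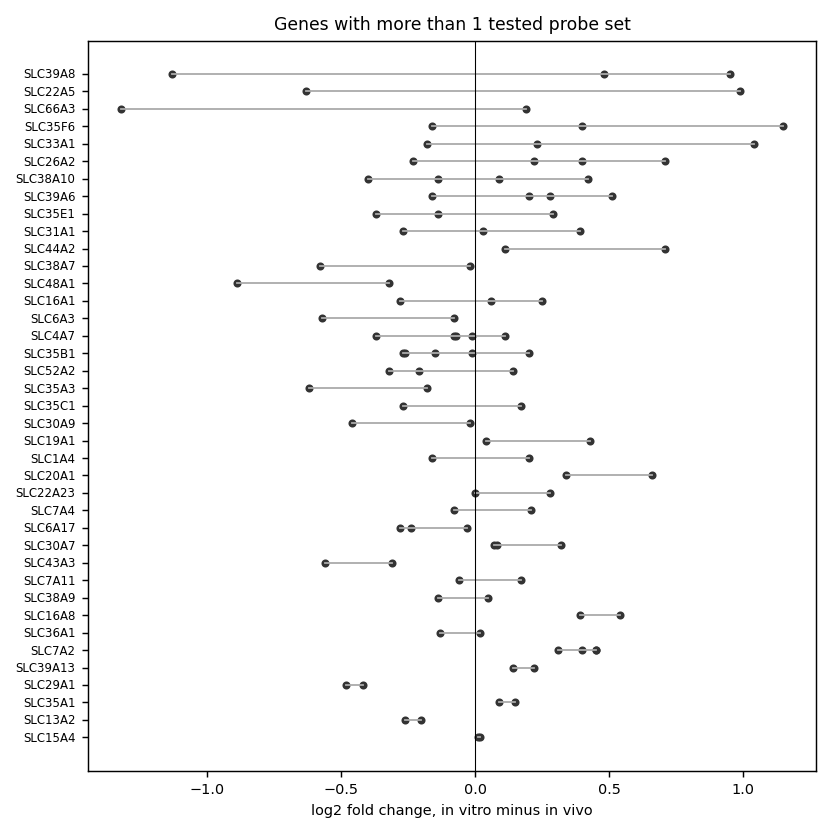
Log2 fold change, in vitro minus in vivo, of every tested probe set of the 39 carrier genes with more than 1, joined by a grey line for each gene and ordered by their range. SLC22A5 runs from -0.63 to 0.99, the lowest point of SLC39A8 is a fitted value with no in vitro array above background, and 21 genes have probe sets on both sides of 0.

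The spread between pools was wider in vivo for carriers as for the whole array. The median SD of log2 values was 0.310 in vitro and 0.425 in vivo over tested carriers, and 0.315 in vitro and 0.431 in vivo over all tested probe sets. The SD was lower in vitro at 65.4% of carriers and at 66.3% of all. In the amino acid class the medians were 0.345 in vitro and 0.514 in vivo. Among carriers, in vivo replicates 3 and 4 most often gave the highest signal of the 8 arrays, at 19.2% and 20.2%, and in vivo replicate 1 did at 12.5%. Over all tested probe sets these shares were 18.1%, 16.6% and 17.9%.

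Genes around the carriers did not pass either. Of 4 tested sodium pump subunits and regulators, 19 partner and regulator proteins of carriers, 26 genes of amino acid sensing by mTORC1, 14 genes of the response to amino acid shortage and 19 carriers without an SLC symbol, 0 passed in either direction, and 1, 3, 1, 1 and 2 of them reached an unadjusted p under 0.05, where 0.144% and 10.2% of all tested probe sets did. The median log2 fold changes of the 5 lists were 0.04, 0.01, -0.09, 0.15 and 0.02, beside 0.01 over all tested probe sets. NUPR1, a stress-induced nuclear protein gene of the shortage list, came nearest. Its signals were 60.6, 88.4, 33.1 and 90.3 in vitro, against 514.3, 163.6, 291.8 and 200.9 in vivo. The groups did not overlap, and the log2 fold change was -1.93 ± 0.36 (SE; limma adjusted p = 0.0564, from 0.0163 to 0.245 over 18 alternatives, 6 of which it passed). ATF4, the transcription factor that raises carrier genes in amino acid shortage, averaged 1545 ± 305 in vitro and 2323 ± 1072 in vivo (log2 fold change -0.48, limma adjusted p = 0.598), and its target ASNS, for asparagine synthetase, had -0.59. NUPR1, ATF4 and ASNS were named for the smallest p in the shortage list. All 3 were lower in vitro, while the median of that list was 0.15 and most of its tested genes were positive. CHP1, for a calcium-binding partner protein of carriers, had -0.65, and the carbonic anhydrase genes CA12 and CA9 had 0.52 and 0.80. The pump regulators FXYD6, FXYD2 and FXYD5 had -0.70, 0.12 and 0.06. In the sensing list LAMTOR5, KPTN and FLCN had -0.42, 0.97 and 0.52, and among other carriers SLCO4A1, SVOP and MFSD14B had -0.70, -0.74 and 0.26.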

How the data were processed

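RNA from pools of 4 oocytes was amplified in 2 rounds before hybridisation, per the labels' protocols. The values are linear probe set intensity, deposited by the authors as output of MAS5 (named without a version by the submitters' processing notes). The number of arrays limits the precision. Gene symbols came from the platform annotation, and by Entrez identifier all 371 members matched RefSeq genes of assembly T2T-MMU8v2.0, with 0 changed symbols. Sequences and coordinates are not shown.

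The labels gave the groups. Signals were transformed to log2(signal + 8.2), adding the 25th percentile of signals of 52766 non-control probe sets, so folds of dim transcripts are understated. Those whose mean log2 value exceeded its 50th percentile (26383) were tested with limma 3.58.1 in R 4.3.3 (lmFit, eBayes with intensity trend, Benjamini-Hochberg over all tested). The fit was tested on simulated data. With no array of a group above background, the fold is a bound, computed with that group's signals raised to at least the background of each array.

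Members and lists were chosen with earlier results of these data known. Named genes were, per class and direction, the 6 of smallest p, the 8 of highest signal per class, and 18 genes picked for their role, each at its probe set of smallest p; lists gave up to 3 genes each. The alternatives were other pseudocounts (1 and 27.7), filters, normalizations, variance models and weights, a replicate block and each array left out. Of these, a filter on linear means was added after seeing the data.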

Additional observations from a re-analysis of the deposited data

Results flagged for a closer look

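Among 96 groups of 4 arrays checked at 48 named carrier genes, 1 held an array far from the others, where chance alone gives about 1 in 20. Many of these genes, SLC33A1 among them, were picked by values in the same data, so this rate need not hold for them. At the dimmest SLC33A1 probe set, in vivo replicate 4 had a signal of 42.4 while the other in vivo arrays had 7.7 to 9.6. The gap was 0.902 of the range of the group on the log2 scale, above the 95% critical value of Dixon's test for 4 samples. In vivo replicate 4 was the only in vivo array above background at that probe set.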

How the results depend on the processing

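The count of carrier probe sets past the adjusted threshold was 0 and became 1 with the pseudocount at the median signal, 1 with quantile normalization, 2 with the upper-quarter filter and 2 with array weights, and 0 to 2 with an array left out. The genes that passed somewhere were SLC1A5, SLC12A5 and SLC46A3. With the upper-quarter filter, which tests fewer members (102), 11 had an unadjusted p under 0.05 (10.8%, against 13.4% of all probe sets tested there) and 5 did not overlap (4.90%, against 8.32%). The non-overlapping members numbered 12, and 17 to 24 with an array left out, where fewer arrays make separation easier: 24 leaving out in vivo replicate 1, and 19 leaving out in vivo replicate 4. As shares these were 8.17% to 11.4% of members, against 8.75% to 11.8% of all. Median centring subtracts 1 value per array and so moves the log2 fold changes of all probe sets alike. With it the median of the other carriers became -0.05, and NUPR1 went from -1.93 to -1.98. Over all probe sets the 38 calls became 10 without the intensity trend, 88 with array weights and 18 to 97 with an array left out. They became 18, 21 and 21 without in vitro replicates 1, 2 and 3, and 71 and 97 without in vivo replicates 1 and 4.

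With the replicate number as a block 0 carriers passed, 17 had an unadjusted p under 0.05, and 43 of all probe sets passed. SLC1A5 and SLC12A5 then had limma adjusted p-values of 0.129 and 0.130. The deviations of arrays with the same number correlated at -0.0467 to 0.0155, and those of arrays with different numbers at -0.0453 to 0.0573. Since these ranges overlap, the correlations cannot decide whether the numbers pair the pools, and the labels do not say. The block changed no call among carriers.

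Of 63 named genes, 49 kept their direction in each alternative that tested them (10 to 18 of the 18), and 14 with small fold changes did not. SLC15A4 became -0.03 with median centring and -0.11 with array weights, SLC4A2 became 0.05 with quantile normalization, and SLC38A11 became -0.02 with median centring and 0.00 with the pseudocount at the median signal. With an array left out the ranges were -0.81 to 0.03 for SLC38A3, -0.32 to 0.03 for SLC38A9, -0.12 to 0.26 for SLC6A20, -0.07 to 0.44 for SLC7A11, -0.03 to 0.62 for SLC7A7 and 0.00 to 0.40 for SLC7A9. They were -0.24 to 0.16 for SLC15A4, -0.52 to 0.31 for SLC16A7, -0.29 to 0.09 for SLC4A2, -0.01 to 0.43 for SLC5A6, -0.53 to 0.57 for SLC38A11 and -0.46 to 0.05 for SLC6A8. For FXYD2 and FXYD5 they were -0.02 to 0.29 and -0.11 to 0.29. Median centring moves all probe sets alike, and the causes of the other changes were not tested.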
